A study of Mus musculus with 2 samples.

Results

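Germ cells of foetal mouse gonads were examined for genes whose level went up in the first 24 h of gonad culture in both sexes. Genes were chosen by their measured levels, given as CPM, the count of a gene scaled to 1000000 counts of its library. A gene was taken where its mean after 24 h in the vehicle DMSO was at least 20 CPM in XX and in XY germ cells, and at least 2 times the mean before culture (0 h) plus 1 CPM in each sex. Of 42422 genes in the count table, 54 met this rule. The level was met in both sexes by 7058 genes. With level and fold asked of 1 sex only, 279 further genes met both in XX but not in XY, and 131 in XY but not in XX, and these are called XX alone and XY alone below. No symbol starting with Slc, which the rule leaves out, was among the genes that met it.

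Gonads with the mesonephros attached were taken at embryonic day E12.5 from embryos of 129T2svJ males carrying an Oct4-eGFP transgene and Swiss females, with no other allele in any group. They were used at once (0 h) or cultured for 24 or 72 h. XX gonads were cultured in DMSO and XY gonads in DMSO, in 500 nM of the FGF receptor inhibitor BGJ398 (FGFRi) or in 500 nM of the MEK1/2 inhibitor PD0325901 (MEKi). Per the paper, the mesonephros was cut away after culture, before the gonads were dissociated. Germ cells were sorted by eGFP, which the Oct4 promoter drives in germ cells, and the gonads of several embryos were pooled for each library, so a library stands for a pool of embryos, and a lower level can come from fewer cells that express a gene or from less RNA per cell, which cannot be told apart. There were 10 groups of 4 libraries. XX gonads were not treated with an inhibitor, and there was no culture without vehicle, so that the time in culture, the medium and the age reached cannot be told apart in any change between 0 h and 24 h.

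The libraries were made in 2 pools of 20. XX and XY 0 h, XX and XY 24 h DMSO and XY 24 h MEKi were in the first pool, and XY 24 h FGFRi and the 72 h groups in the second. Total counts ran from 1178953 to 5199153 per library (median 2135128.5). Ddx4 (185 to 571 CPM) and Dazl (820 to 1772 CPM), which mark germ cells, were present in each library. The summed Sertoli cell list of 10 markers took 0.00356% to 0.0264% of the counts over all libraries. From 0 h to 24 h in DMSO its mean went from 0.00648% to 0.0115% in XY, where replicate 2 was at 0.0264%, and from 0.00623% to 0.00435% in XX. Within it Sox9 went from 8.7 to 22.6 CPM and Cst9 from 6.5 to 15.9 CPM in XY (means), Sox9 met the rule in XY alone, and Amh was at 0 to 1.44 CPM in all libraries. The pregranulosa list of 8 markers went from 0.00226% to 0.00345% in XY and from 0.00533% to 0.00573% in XX, and Rspo1 of this list met the rule in XY alone. The list of 11 Leydig and interstitial markers went from 0.00492% to 0.00251% in XY and from 0.00246% to 0.00253% in XX, with Insl3 at 0 and Nr2f2 at 2.78 to 36.8 CPM over all libraries. The list of 7 mesonephros and epithelium markers was at 0.043% to 0.0559% in XX and 0.0737% to 0.0788% in XY at 0 h, and at 0.0196% to 0.0294% and 0.0434% to 0.0652% after 24 h. Most of that sum was Epcam, Lhx1 and Cdh1, and the means of Pax2, Pax8, Upk3b and Krt19 were 0.181 to 3.58 CPM in these 4 groups. The blood list of 11 markers took 0.0207% to 0.052% after 24 h in MEKi and 0.00424% to 0.0137% after 24 h in DMSO, with no overlap. The part of these lists in the values below was not tested. Sample indexes were shared by 16 pairs of libraries across the pools, and from Y-linked genes in XX libraries the carry-over into the first pool was put at 3.25% of the partner's counts.

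At E12.5 germ cells of both sexes are leaving the primordial state. XX germ cells then enter meiotic prophase, when chromosomes are paired by the synaptonemal complex and held by meiotic cohesins, whereas XY germ cells stop dividing and start a male programme. Many germline genes have promoters that are silenced by DNA methylation in other cells, and the methylation of the genome is erased in germ cells of both sexes around this stage. Some of these promoters hold the E-box CACGTG, which is bound by dimers of MAX, among them the MGA-MAX pair of a Polycomb complex that represses germline genes.

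Promoters (250 bases before to 50 after the start of a transcript, RefSeq, GRCm38.p6) were given for 44 of the 54 genes. CACGTG, which reads the same on both strands, stood in 10 of these 44 (22.7%), in 13.5% of the 5087 genes with a promoter that met the 24 h level, and in 8.09% of all 27025 genes with a promoter. The 10 genes were Sycp1, Sycp3, 4930447C04Rik, Taf7l, Brdt, Ccdc172, Cracdl, Crebrf, Hsd17b7 and Mxd4. The first 5 of them code for proteins of meiosis or germ cell transcription. For each, 60 bases within the 250 before the start are shown, on the strand of the gene, with the matched E-box in capitals:
Sycp1 (chr3:102936162-102936221, minus): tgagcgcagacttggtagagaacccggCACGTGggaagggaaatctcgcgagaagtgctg
Sycp3 (chr10:88459496-88459555, plus): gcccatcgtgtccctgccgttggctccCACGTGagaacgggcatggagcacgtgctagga
4930447C04Rik (chr12:72917904-72917963, minus): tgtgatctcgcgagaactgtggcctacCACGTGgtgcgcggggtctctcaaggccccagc
Taf7l (chrX:134476507-134476566, minus): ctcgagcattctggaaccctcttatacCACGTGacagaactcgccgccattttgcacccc
Brdt (chr5:107331089-107331148, plus): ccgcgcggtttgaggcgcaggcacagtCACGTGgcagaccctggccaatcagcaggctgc
The E-box began 94 bases before the start in Sycp1, 64 in Sycp3, 171 in 4930447C04Rik, 49 in Taf7l and 78 in Brdt, and Sycp3 held a second, which began 43 bases before its start and is in lower case near the end of its line. A match of letters is no evidence of binding.

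Other motifs were at or below the level of genes that met the 24 h level, or rested on few genes. TTCCCGC (the E2F motif, either strand) stood in 3 of 44 promoters (6.82% against 11.5%), CCGGAAGT (the ETS motif, either strand) also in 3 (6.82% against 12.2%), TGACTCA (the AP-1 motif, either strand) in 3 (6.82% against 3.26%), and GGGCGG (the GC box, either strand) in 28 (63.6% against 73.7%). TGACGTCA (the cAMP response element) and ATTTGCAT (the octamer) were in none of the 44, and in 4.64% and 1.45% of the others. The longer E-box TCACGTGA, which reads the same on both strands and holds CACGTG within it, stood in 1 of 44 (2.27%, Crebrf) against 3.03%. The median ratio of observed to expected CpG was 0.739 for the 54 genes' promoters that were given, 0.838 for genes that met the 24 h level and 0.389 for all promoters.

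Since 0.765% of the genes that met the 24 h level met the rule, a list of few such genes would rarely hold one, and a count of 0 says little. Of 31 meiotic prophase genes, 4 met the rule (Stra8, Rec8, Sycp1 and Sycp3), 12 met it in XX alone and 0 in XY alone. Among 42 germline genes reported as sensitive to DNA methylation, 4 met it (Sycp1, Sycp3, Taf7l and Brdt), 14 in XX alone and 1 in XY alone. None of the 26 genes of piRNA and retrotransposon silencing met it, with 8 in XX alone, and none of the 21 genes of cholesterol synthesis and uptake, with 6 in XX alone and 1 in XY alone. With the carry-over subtracted, Tdrd1 of the piRNA and methylation-sensitive lists and Fdps of the cholesterol list met the rule, and Taf7l no longer did. Of these 4 lists 13, 30, 17 and 19 genes met the level in both sexes. None of the 54 was among the genes for immediate early and stress responses (9 met the level), the integrated stress response (8), hypoxia and glycolysis (11), glutathione and NRF2 (9), interferon (3), p53 targets (7), pluripotency (12) or oxidative phosphorylation (16).

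Of the 53 genes that could be placed in the annotation, 9 were on the X chromosome (16.98%), against 3.431% of the 6996 placed genes that met the 24 h level, 9.854% of those that met the rule in XX alone and 3.077% of those in XY alone. These were Taf7l, Bend2, Tro, Zmat1, Hdac6, Gripap1 and the Xlr genes Xlr3c, Xlr4a and Xlr5a. Xlr genes are a family of near-identical copies related to Sycp3, and reads of one copy can be assigned to another. Xlr5a also shares exons on the same strand with Xlr5c, so the values of the 3 are uncertain. Of all 54 genes, 49 were annotated as protein coding. The identifier ENSMUSG00000095041 had no match, and Gm7972, Gm3571 and Gm6436 are annotated as pseudogenes, whose counts may include reads of other copies.

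Together the 54 genes took 0.211% ± 0.0123 (SD, n = 4) of the counts of XX germ cells at 0 h and 0.7% ± 0.151 after 24 h. In XY germ cells they took 0.166% ± 0.00568 at 0 h and 0.426% ± 0.0809 at 24 h. The share went on to 1.29% ± 0.0451 in XX and 0.763% ± 0.0221 in XY germ cells at 72 h, values that were measured in the other pool. Within the 24 h groups the spread was wide. XX replicate 6 was at 0.927% while the other 3 lay between 0.621% and 0.63%, and XY replicate 3 was at 0.532% while the other 3 lay between 0.336% and 0.43%. XX replicate 6 was the highest of its group for 37 of the 54 genes, and XY replicate 3 for 40.

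**Figure D1:**
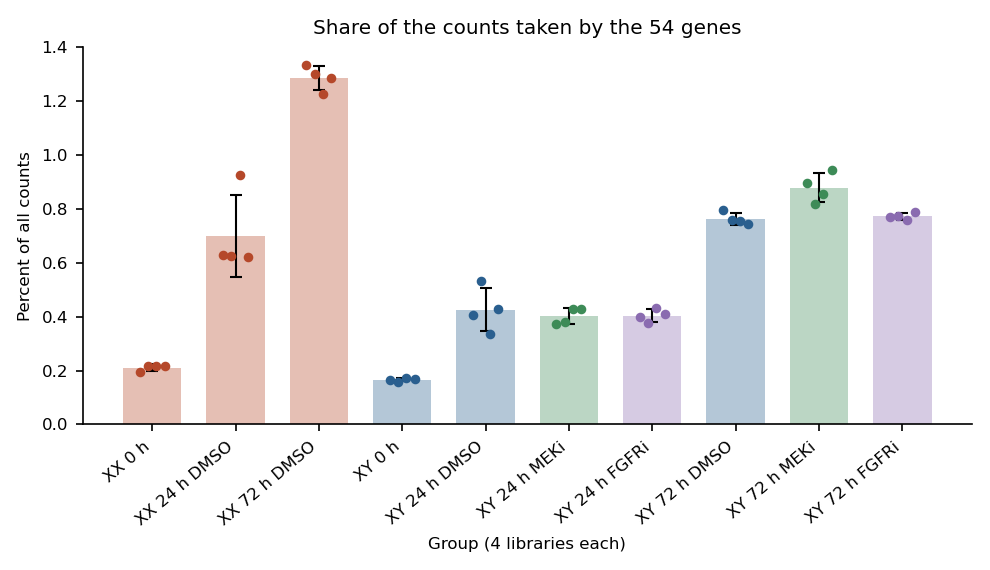
Percent of all counts taken by the 54 genes (vertical axis) in each of the 10 groups (horizontal axis). Points are libraries, bars are group means and error bars the SD of 4 libraries. XX 24 h DMSO replicate 6, at 0.927%, stands above the other 3 libraries of its group, and the highest mean is that of XX 72 h DMSO, at 1.29%.

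The rule fixes that each gene went up, so the sizes of the 24 h to 0 h ratios are given as a description. The ratio, taken over the 0 h mean plus 1 CPM, ran from 2.065 to 10.58 in XX (median 2.782) and from 2.009 to 11.02 in XY (median 2.327). Over the 7058 genes that met the level the medians were 0.988 and 0.9829. XX libraries at 24 h were above all XX libraries at 0 h for 53 of the 54 genes, the exception being Gm6436 (15.8% of genes that met the level). In XY this held for 48 of 54 (12%), and Susd4, Xlr5a, Xlr3c, Xlr4a, Tfcp2 and Gm6436 overlapped. The ratio was the larger in XX for 33 of the 54 genes. It differed most between the sexes for Gm7972 (5.473 in XX and 2.335 in XY), Tro (8.599 and 3.786) and Ankrd31 (5.002 and 2.638), and in the other direction for Cracdl (2.175 and 3.702) and Prelid2 (2.21 and 3.686).

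**Figure D2:**
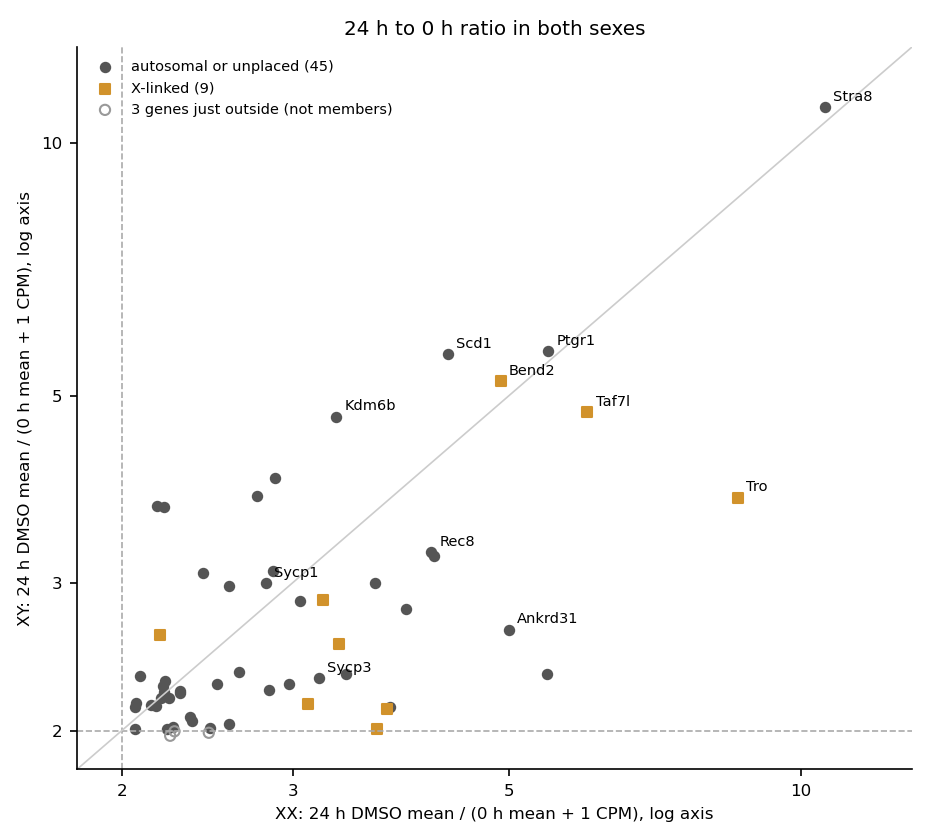
Ratio of the 24 h DMSO mean to the 0 h mean plus 1 CPM in XX (horizontal, log axis) and XY germ cells (vertical, log axis). Each filled point is 1 of the 54 genes, squares are X-linked, open circles are the 3 genes just outside the fold, dashed lines mark the 2-fold rule and the grey line equal ratios. Stra8 stands alone at 10.58 in XX and 11.02 in XY, and most genes crowd near the 2-fold corner. Carry-over was not subtracted from these ratios.

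Among the genes of meiosis was Stra8, which the retinoic acid response turns on and which meiotic entry requires (chromosome 6, 34897098 to 34916279, GRCm39). Before carry-over was subtracted, Stra8 had the highest ratio in both sexes. Its level in XX germ cells was 70.8, 104, 91.1 and 95.2 CPM at 0 h and 799, 916, 1324 and 828 CPM at 24 h. XY libraries had 11.6, 7.19, 9.33 and 4.87 CPM at 0 h and 87.5, 112, 104 and 103 CPM at 24 h. The ratios were 10.58 in XX and 11.02 in XY while the levels lay far apart. With carry-over included, the XY mean at 24 h (102 ± 10.5 CPM, SD, n = 4) was close to the XX mean before culture (90.4 ± 14.2 CPM). Each XY 24 h DMSO library shares its index with an XY 72 h MEKi library rich in Stra8. With the carry-over subtracted the XY mean was 5.36 CPM at 0 h and 63.99 CPM at 24 h, a ratio of 10.06. The XX mean was then 76.52 CPM at 0 h and 1012 CPM at 24 h, a ratio of 13.06. After subtraction the XY mean at 24 h thus lay below the XX mean at 0 h. In XX the subtracted ratios of Tro (14.34) and Taf7l (13.99) were larger than that of Stra8.

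Rec8, the meiotic cohesin subunit (chromosome 14, 55855455 to 55862852), was also higher in XX at both times. XX libraries held 72.9 to 87.7 CPM at 0 h and 293 to 371 CPM at 24 h, and XY libraries 6.93 to 12 CPM at 0 h and 29.3 to 41 CPM at 24 h. No 2 of these 4 groups overlapped, and XY at 24 h remained below XX at 0 h.

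Sycp1, the transverse filament of the synaptonemal complex (chromosome 3, 102725709 to 102843455), was at 197, 217, 205 and 200 CPM in XX at 0 h and at 567, 474, 735 and 536 CPM at 24 h. In XY it was at 80.5, 75, 59.4 and 86.5 CPM at 0 h and at 214, 290, 175 and 235 CPM at 24 h. Sycp3, of the chromosome axis, went from 170.2 ± 19.0 to 546 ± 164 CPM in XX and from 75.9 ± 5.27 to 177 ± 30.1 CPM in XY. 4930447C04Rik, also named Six6os1 and coding for a protein of the central element, went from 198 ± 21.5 to 432 ± 84.3 CPM in XX and from 138 ± 26.8 to 298 ± 49.0 CPM in XY. The 3 synaptonemal genes were well above the 20 CPM level in each library of both sexes, also before culture.

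Ankrd31, which acts in the formation of meiotic double-strand breaks, was at 15 to 18.4 CPM in XX at 0 h and at 87.9, 49.9, 138 and 82.2 CPM at 24 h. Its XY level was 8.61 to 14.4 CPM at 0 h and 20.2, 47.4, 21 and 30.9 CPM at 24 h, with replicate 3 the highest. Zcwpw2, a CW and PWWP domain gene, went from 16.1 to 62.3 CPM (means) in XX and from 5.95 to 20.8 CPM in XY, which is just inside the level. Rnf212b, a RING protein of crossover sites, went from 30.1 to 68.8 and from 17.1 to 41.4 CPM. Adad1, an RNA-binding protein with a deaminase domain, went from 10.6 to 48.7 CPM in XX and from 7.03 to 25.9 CPM in XY. Counting was not stated to use strand for these genes, and exons of Zcwpw2, Rnf212b and Sycp3 overlap those of Azi2, Homez and Chpt1 on the other strand. Exons of Ccdc73, also of the set, overlap those of Eif3m in the same way. Over all libraries Eif3m had 15494 counts against 13984 for Ccdc73, and Azi2 6857 against 4565 for Zcwpw2. Homez had 1572 against 4393 for Rnf212b, and Chpt1 3418 against 43743 for Sycp3.

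Among the genes of germ cell transcription and the X chromosome, Taf7l, a germ cell paralogue of the TFIID subunit TAF7 (X chromosome, 133360861 to 133377290), was at 28.9, 29.7, 25.3 and 24.2 CPM in XX at 0 h and at 181, 99.3, 281 and 114 CPM at 24 h. XY libraries had 6.41, 5.91, 3.39 and 4.49 CPM at 0 h and 21.1, 45.5, 22.7 and 26.4 CPM at 24 h. With the carry-over subtracted the XY 24 h mean was 18.87 CPM, under the level of the rule, at a ratio of 5.828. Taf7l is 1 of 7 genes that leave the set on subtraction, with Cracdl, Dbn1, Ptgr1, Sdc4, Zcwpw2 and Prelid2, while 8 join it (Ccl25, Saysd1, Bin2, Nxf2, Fdps, Gm9517, Txndc16 and Tdrd1), which gives 55. For each of the 54 the subtracted ratio stayed above 1.5 in both sexes (lowest 1.771, Sdc4 in XX).

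Bend2, a BEN domain gene of meiotic germ cells, was at 15.8 to 26.7 CPM in XX at 0 h and at 71.6 to 157 CPM at 24 h. In XY it was at 10.8 to 16.2 CPM and at 55.8 to 116 CPM, so the ranges of the sexes overlapped at 24 h. Tro, a trophinin of the MAGE family, was at 8.94 to 9.74 CPM in XX and 8.98 to 23.7 CPM in XY at 0 h, and at 60 to 153 CPM and 48.9 to 81.2 CPM at 24 h. Brdt, a bromodomain protein of germ cell chromatin (chromosome 5), was nearly the same in the sexes, at 41.3 ± 2.21 CPM in XX and 39.6 ± 3.57 CPM in XY at 0 h and at 106 ± 17.8 and 92.2 ± 6.95 CPM at 24 h. Over the 9 X-linked genes the ratio of XX to XY was 0.5706 to 5.351 at 0 h (median 1.395) and 0.9095 to 5.833 at 24 h (median 1.415). Over the 44 genes placed elsewhere the medians were near these, at 1.226 and 1.292.

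Among the genes of metabolism, the cell surface and regulation, Scd1, stearoyl-CoA desaturase, was at 10.3 to 18.4 CPM in XX at 0 h and at 79.6, 76.2, 47.5 and 59.8 CPM at 24 h. XY libraries had 2.4 to 3.08 CPM and then 23.1, 9.78, 25.4 and 25.9 CPM, where replicate 3, the highest library for most of the 54 genes, was the lowest. Kdm6b, a demethylase of histone H3 lysine 27, was at 5.07 to 7.66 CPM and then 13.9 to 46.6 CPM in XX, and at 7.45 to 13.6 CPM and then 36.6 to 82.6 CPM in XY. Mxd4, a partner of MAX, went from 55.3 to 124 CPM (means) in XX and from 15.9 to 38.1 CPM in XY, and Idh1, the cytosolic isocitrate dehydrogenase, from 36 to 87.1 and from 34 to 72.5 CPM.

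Ptgr1, prostaglandin reductase, and Sdc4, the heparan sulphate proteoglycan syndecan 4, were higher in XY. Ptgr1 was at 3.44 to 7.61 CPM in XX at 0 h and at 23.1, 25.4, 60.2 and 30.5 CPM at 24 h, against 15.7 to 25.4 CPM and 102, 178, 87.5 and 119 CPM in XY. Sdc4 was at 46.3 to 67.4 CPM and 95.9 to 213 CPM in XX, against 210 to 303 CPM and 413 to 640 CPM in XY. The XX 24 h libraries share their indexes with XY 72 h FGFRi libraries, which are rich in both, and after subtraction the XX mean was 17.29 CPM for Ptgr1 and 97.57 CPM for Sdc4. At 24 h the libraries of the sexes did not overlap for 21 genes higher in XX (17.3% of genes that met the level) and 4 higher in XY (17.5%), the latter being Ptgr1, Sdc4, Cracdl and the zinc finger gene Bnc2.

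**Figure D3:**
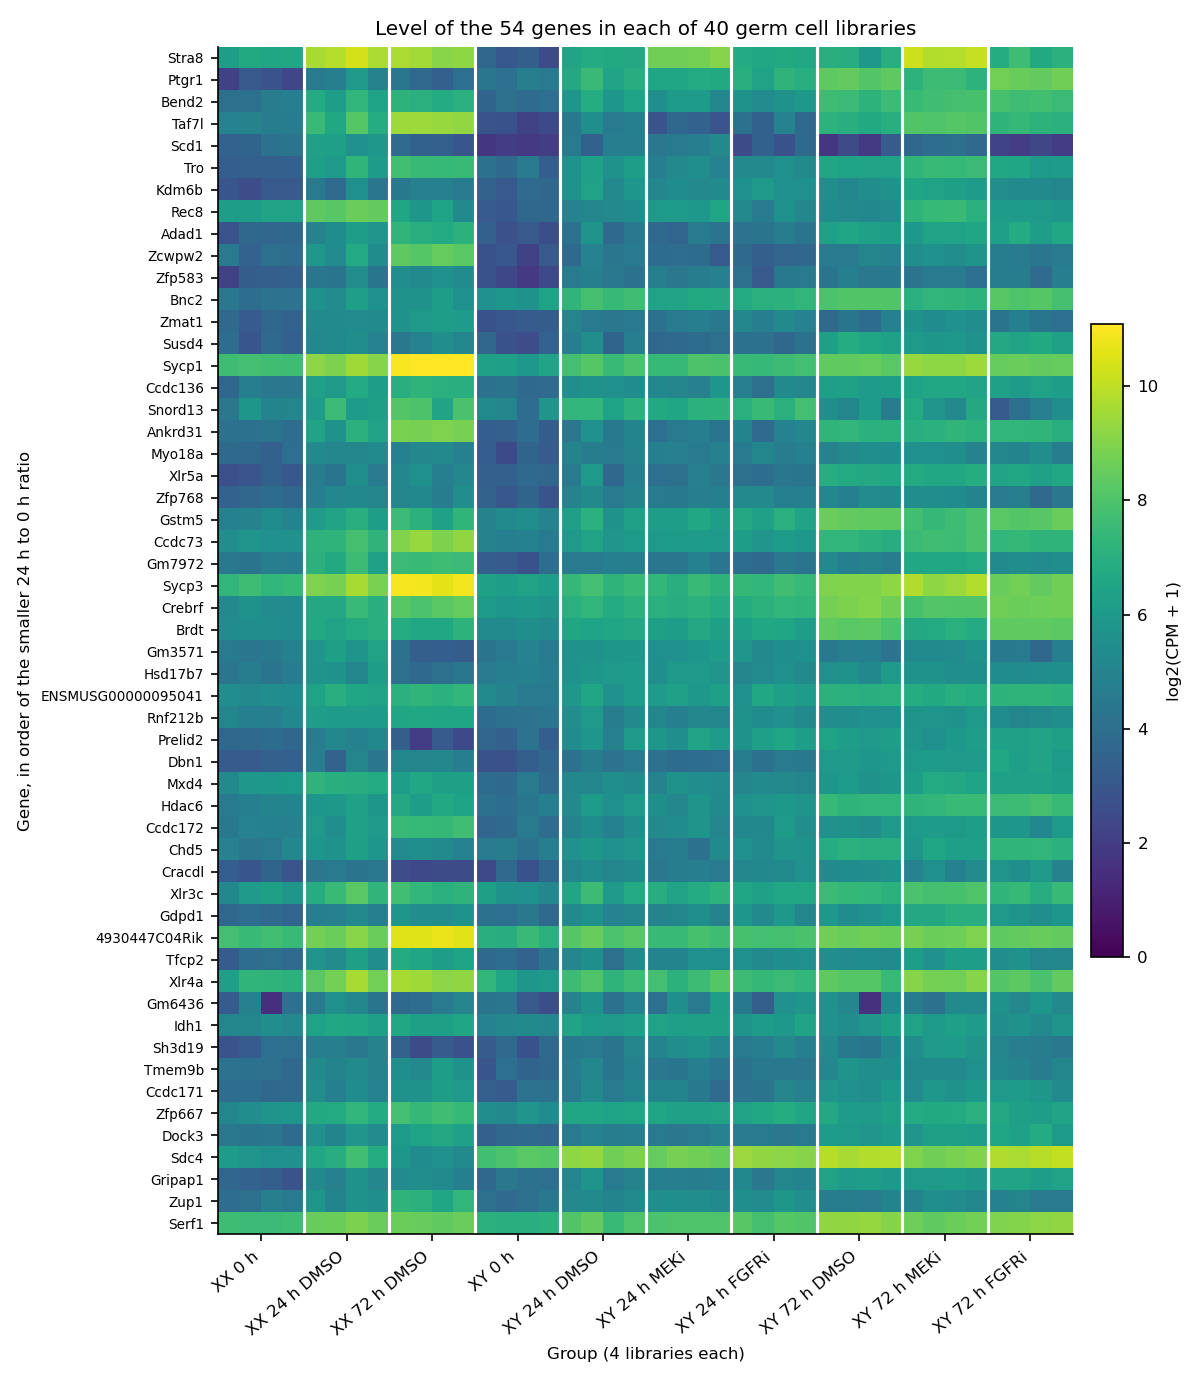
Level of each of the 54 genes (rows, in order of the smaller of the 2 sex ratios) in each of 40 libraries (columns, grouped, 4 per group) as log2(CPM + 1) by colour. Both 24 h DMSO groups are brighter than their 0 h groups in each row, Sycp1, Sycp3 and 4930447C04Rik are brightest in XX 72 h DMSO, and Stra8 is bright in XX after 0 h and in XY with MEKi.

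The genes at the edge of the rule were as follows. Just inside the fold were Serf1 (smaller ratio 2.009), Zup1 (2.011) and Gripap1 (2.011), and just outside were Fdps (1.996), Gm9517 (1.988) and Ccl25 (1.972). Just inside the level were Cracdl (20.2 CPM in XX), Dbn1 (20.3 CPM in XY) and Zcwpw2 (20.8 CPM in XY), and just outside were Mbnl2 (19.2 CPM in XX), Gchfr (19.2 CPM in XY) and the pseudogene Sycp1-ps1 (18.5 CPM in XY). Fdps is an enzyme of the mevalonate pathway. The set depends on single libraries of the 24 h groups. Without XY 24 h DMSO replicate 3 the rule took 39 genes, 33 of them among the 54, without XX 24 h DMSO replicate 6 it took 45, all among the 54, and without both it took 35. With a 3-fold rule 9 genes were left, from Stra8 to Adad1 in the order of the smaller ratio.

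Inhibitors at 24 h were compared with XY 24 h DMSO, the libraries that helped to choose the genes, so the values are a description only. The 54 genes took 0.402% ± 0.0306 of the counts with MEKi and 0.404% ± 0.0233 with FGFRi, against 0.426% ± 0.0809 in DMSO. Of the 54, 35 were still at least 2 times the XY 0 h mean plus 1 CPM with MEKi (1.37% of genes that met the level) and 38 with FGFRi (2.08%), whose libraries were in the other pool. Stra8 was at 410, 409, 437 and 541 CPM with MEKi, above the 87.5 to 112 CPM in DMSO, and at 111, 95.7, 104 and 96.4 CPM with FGFRi.

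Besides Stra8, Rec8 was above DMSO without overlap, at 61.3, 65.5, 58.3 and 90 CPM with MEKi (4.09% of genes that met the level were higher without overlap). Another 7 genes were below DMSO without overlap with MEKi, namely Taf7l, Bnc2, Tro, Chd5, Dbn1, Cracdl and 4930447C04Rik (9.52% of genes). Taf7l was at 6.38, 12.4, 10.3 and 6.69 CPM with MEKi, close to the 3.39 to 6.41 CPM of XY at 0 h. The DMSO values include carry-over from 72 h MEKi libraries, which the 24 h inhibitor libraries do not share. With it subtracted, Taf7l, Tro and Dbn1 overlapped between MEKi and DMSO, and the other 4 genes did not. With FGFRi 5 genes were below DMSO (Tro, Ccdc136, Gm7972, Hsd17b7 and 4930447C04Rik, 9.86% of genes) and Zup1 was above (4.62%). With the carry-over subtracted, Tro and Gm7972 overlapped, and Stra8, at 52.5 to 72.7 CPM in DMSO, lay below the 95.7 to 111 CPM with FGFRi. The share over all genes was not counted after subtraction, so nothing is read from the counts after it.

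Between 24 h and 72 h in DMSO, the pool changed with the time and the 2 cannot be told apart. A 72 h mean of at least 2 times the 24 h mean was reached by 13 genes in XX (24.1%, against 4.661% of genes that met the level) and 19 in XY (35.2%, against 6.177%). A mean of at most 0.5 of it was found for 9 in XX (16.7%, against 16.78%) and 3 in XY (5.56%, against 12.24%), shares at and below those of all genes that met the level, and 32 lay between in each sex. Taf7l, Adad1, Ankrd31, Ccdc73, Sycp3 and Crebrf were higher in both sexes. Sycp1, 4930447C04Rik, Zcwpw2, Tro, Ccdc172 and Zup1 were higher in XX and within 2-fold in XY. Another 12 genes, among them Brdt, Bend2, Hdac6, Chd5 and Gstm5, were higher in XY and within 2-fold in XX. Scd1 and Gm3571 were lower in both, and Rec8, Sdc4, Prelid2, Cracdl, Sh3d19 and Hsd17b7 were lower in XX. Stra8 was within 2-fold of its 24 h mean in both sexes. Ptgr1 was lower in XX and higher in XY.

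The 72 h groups were made in 1 pool and their means were not used by the rule, so differences were tested (limma treat against a 1.5-fold change over all 15252 genes that passed the filter on low counts, FDR under 0.05). All 54 genes passed the filter. Carry-over from 72 h libraries nevertheless reached the 0 h and 24 h DMSO libraries that the rule used. The 0 h libraries share indexes with 72 h DMSO libraries of the same sex, so genes high at 72 h in DMSO can read higher at 0 h. On subtraction 8 genes join the set, and neither the 54 nor the 47 below hold them. The choice of both sets was thus not free of the tested libraries. For the 7 genes that leave the set on subtraction, carry-over helped to choose them. Where they are named, their 72 h differences are given as a description, without an FDR or a call. Counts of called genes over the 54 still include these 7 where they passed the test. Such counts thus rest partly on genes chosen through the tested libraries, and are given again over the 47 genes that stay. With the carry-over subtracted, Ptgr1 (17.29 CPM at 24 h), Sdc4 (ratio 1.771), Prelid2 (1.994) and Cracdl (18.85 CPM, ratio 1.983) fail the rule in XX, whose 24 h libraries share indexes with XY 72 h FGFRi. Taf7l (18.87 CPM) and Zcwpw2 (19.78 CPM) fail it in XY, whose 24 h libraries share indexes with XY 72 h MEKi, and Dbn1 fails it in both sexes (18.51 CPM in XX and 18.44 CPM in XY). The first comparison asked how far the sexes had parted. XY germ cells were higher than XX for 12 of the 54 genes (22.2%, against 22.8% of all genes tested and 18.7% of the other genes that met the 24 h level) and lower for 20 (37%, against 18.1% and 20.4%). Over the 47 genes that stay on subtraction, 8 were higher (17%) and 18 lower (38.3%). The median log2 fold change was -0.25 for the 54, -0.43 for the 47 and 0.10 for all genes. Over the 47, the share of higher calls was below that of all genes, and the share of lower calls was above it. Of the calls, that of Zfp583 was lost without any 1 of 5 libraries (log2 fold change -0.92 to -1.03), by DESeq2 at the same tested fold (-1.07) and with no filter (-1.08). Among lists for other cell types, 2 of 8 tested Sertoli markers were called lower in XY and 0 higher (median log2 fold change -0.58), as were 2 of 8 pregranulosa markers and 0 higher (-0.55), while of 7 Leydig and interstitial markers 2 were lower and 1 higher (-0.27). The pregranulosa list took 0.00551% to 0.00857% of the counts in XX and 0.00342% to 0.0047% in XY, and the Sertoli list 0.00929% to 0.0137% and 0.00961% to 0.0111%. The means of Wt1 were 22.7 CPM in XX and 6.55 CPM in XY, and those of Foxl2 9.07 and 0.74 CPM. Some other markers of the Sertoli and pregranulosa lists had the higher mean in XY. In the Sertoli list Sox9 was at 5.96 CPM in XX and 11.02 CPM in XY, and Ptgds at 3.97 and 10.18 CPM. In the pregranulosa list Fst was at 2.76 and 6.89 CPM, and Rspo1 at 10.17 and 17.3 CPM. Of the endothelial, blood and mesonephros lists 1 of 2, 1 of 7 and 1 of 4 tested markers were higher in XY and 0 lower. The part of these lists was not tested.

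Of the genes lower in XY at 72 h, Zcwpw2 had the largest difference, at 21.8, 22.5, 32.3 and 29.4 CPM in XY and 321, 282, 350 and 304 CPM in XX, or -3.70 ± 0.178 (SE) on the log2 scale. Stra8 was at 124, 118, 59.8 and 121 CPM in XY and 811, 739, 560 and 579 CPM in XX, or -2.81 ± 0.175 (SE) on the log2 scale (limma FDR 2.7e-16). Sycp1 was at 303 to 351 CPM in XY and 2005 to 2168 CPM in XX (-2.78 ± 0.104, limma FDR 1.11e-24). Taf7l was at 105 to 142 CPM in XY and 627 to 699 CPM in XX (-2.54 ± 0.137). The groups did not overlap for any of these genes. The pseudogene Gm7972 (-2.73) was also among the 5 largest, and its exons overlap those of a long non-coding RNA on the same strand.

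Sycp3 (log2 fold change -1.94), 4930447C04Rik (-2.08) and Ankrd31 (-1.75) were called lower in XY as well, with means of 523, 392 and 145 CPM in XY and 1828, 1572 and 461 CPM in XX. Rec8 was not called, at 35.6 to 41.3 CPM in XY and 38.8 to 93.3 CPM in XX, where the groups overlapped. It was called lower in XY without XX 72 h DMSO replicate 8 (-1.12), and by edgeR glmTreat with all libraries (-0.95). Of the meiotic prophase list, 27 of 30 tested genes were called lower in XY and 0 higher, with a median log2 fold change of -2.65 beside 0.10 for all genes. Of 41 tested genes of the methylation-sensitive list 19 were called lower and 14 higher, and Brdt was among the higher.

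Of the genes higher in XY, the 4 with the largest differences were genes that pass the rule only with the carry-over. Ptgr1 was at 318, 342, 277 and 319 CPM against 19.4, 12.7, 9.49 and 15.7 CPM in XX (log2 fold change 4.28 ± 0.263), and Sdc4 at 958, 803, 908 and 921 CPM against 55.1, 40.5, 47.5 and 38.8 CPM (4.21 ± 0.185). Prelid2 (3.61) and Cracdl (2.95) were the other 2. Of the genes that stay on subtraction, Bnc2 (2.25) had the largest difference. Brdt was at 332, 305, 315 and 247 CPM in XY and 114, 94.7, 99 and 142 CPM in XX (1.30 ± 0.116, limma FDR 4.10e-07). Brdt (24 h ratios 2.508 in XX and 2.271 in XY) and Sycp3 (3.192 and 2.308) were called in opposite directions at 72 h. Of the 8 X-linked genes that stay on subtraction, 3 were called lower in XY (Zmat1, Xlr4a and Tro, where 18.1% of all genes were lower) and 1 higher (Xlr5a, 22.8%), with a median log2 fold change of 0.12.

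**Figure D4:**
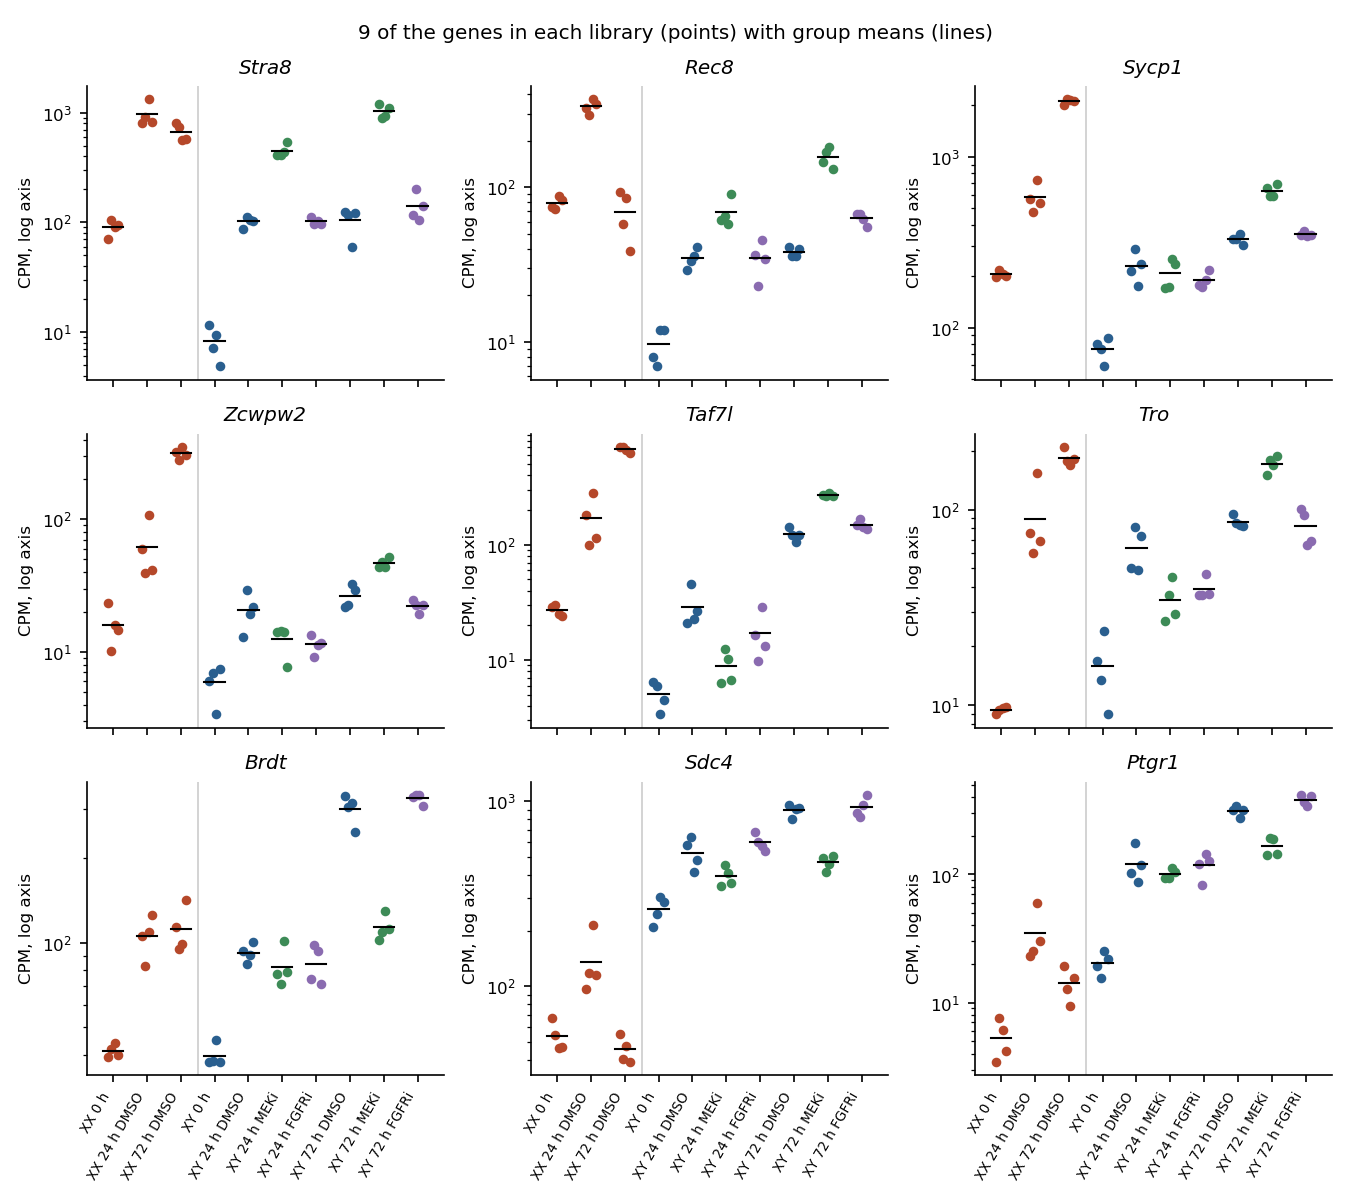
CPM (log axis) of 9 of the 54 genes in each library (points) of the 10 groups (horizontal axis), with group means as lines. XX groups are orange-red, XY 0 h and DMSO blue, MEKi green and FGFRi violet. Stra8 with MEKi at 72 h (899 to 1208 CPM) lies above XX DMSO (560 to 811 CPM), and Brdt with MEKi (103 to 130 CPM) lies within the range of XX DMSO (94.7 to 142 CPM).

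The second comparison asked what MEK1/2 inhibition did to these genes in XY germ cells by 72 h. Of all genes 9.12% were called. With MEKi 7 of the 54 genes were higher than in DMSO (13%, against 4.01% of all genes and 5.3% of the other genes that met the 24 h level) and 5 lower (9.26%, against 5.11% and 2.41%). Over the 47 genes that stay on subtraction, 6 were higher (12.8%) and 3 lower (6.38%). The median log2 fold change was 0.14 for the 54, 0.23 for the 47 and 0.01 for all genes. A count of 24 called genes against 12 (20 against 9 over the 47) was obtained where a fold over 1.5 was only observed and not tested. DESeq2 at the same tested fold called 5, all among the 47, namely Stra8, Rec8, Gm7972, Brdt and Bnc2, and with no filter 8 were called (6 of the 47). Over all genes, the observed fold by limma eBayes called 2375 higher and 2373 lower of 15252. DESeq2 called 397 higher and 550 lower of 15252, and with no filter it was 474 and 543 of 40820. The Sertoli cell list took 0.00665% to 0.0255% of the counts with MEKi, with replicate 3 the highest, and 0.00961% to 0.0111% in DMSO, and 1 of its 8 tested markers was called higher and 0 lower (median log2 fold change 0.69). The blood list took 0.00238% to 0.00516% with MEKi and 0.00446% to 0.01% in DMSO, with 0 of 7 tested markers called (median log2 fold change -1.15). The part of these lists was not tested.

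Stra8 was at 1208, 899, 927 and 1115 CPM with MEKi and at 124, 118, 59.8 and 121 CPM in DMSO, or 3.18 ± 0.164 (SE) on the log2 scale (limma FDR 2.35e-18). Each MEKi library was above each of the DMSO libraries and above each XX library at 72 h, but the difference from XX was not called (mean 1037 against 672 CPM). Rec8 was at 145, 169, 182 and 131 CPM with MEKi and at 41.3, 35.9, 35.6 and 39.6 CPM in DMSO (1.97 ± 0.164, limma FDR 3.47e-09). Here XX libraries had 38.8 to 93.3 CPM, and MEKi was called higher than XX (1.16 ± 0.151, limma FDR 0.00115), which no longer passed without XX 72 h DMSO replicate 8 (log2 fold change 0.84).

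Taf7l was at 270, 264, 283 and 267 CPM with MEKi and at 142, 122, 105 and 122 CPM in DMSO (1.04 ± 0.136). It met the 24 h level in XY only with carry-over from these MEKi libraries, so its difference is a description without a call. Scd1 was at 11.9 to 16.2 CPM with MEKi and 2.37 to 8.2 CPM in DMSO (1.75), a call lost without XY 72 h DMSO replicate 2 (1.44) or replicate 5 (1.61) or without XY 72 h MEKi replicate 4 (1.65), by DESeq2 (1.53) and with no filter (1.72). Gm7972 (1.62), Zmat1 (1.27) and Gdpd1 (1.04) were also called higher. Zmat1 was not called without XY 72 h DMSO replicate 2 (1.08) or by DESeq2 (1.15). Gdpd1 was not called without XY 72 h DMSO replicate 4 (0.91) or XY 72 h MEKi replicate 5 (0.97) or by DESeq2 (0.97). Sycp1 and Sycp3 were not called, at 586 to 696 and 583 to 896 CPM with MEKi and 303 to 351 and 490 to 588 CPM in DMSO. For Sycp1 the groups did not overlap. Sycp1 was called without XY 72 h MEKi replicate 3 (0.92) or replicate 4 (0.92), and by edgeR glmTreat (0.86). It was also called in the second pool alone (0.83). In the 12 XY 72 h libraries it was called with the replicate number as a block (0.90) and without (0.84). 4930447C04Rik was at 381 to 487 CPM with MEKi and 373 to 406 CPM in DMSO, and the groups overlapped. Of the meiotic prophase list 11 of 30 genes were called higher with MEKi and 0 lower, at a median of 0.97.

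Brdt had the largest fall, at 103, 110, 130 and 112 CPM with MEKi and at 332, 305, 315 and 247 CPM in DMSO (-1.47 ± 0.104, limma FDR 2.64e-09). Sdc4 was at 496, 414, 455 and 503 CPM with MEKi and at 803 to 958 CPM in DMSO (-1.06 ± 0.115). The fitted difference of Ptgr1 was -0.98. Sdc4 and Ptgr1 are among the 7 genes that leave the set on subtraction. Bnc2 (-0.94) and Crebrf (-0.90), a regulator of CREB3, were also called lower, Bnc2 not with no filter (-0.84). The call of Crebrf was lost without XY 72 h DMSO replicate 5 (-0.84) or without XY 72 h MEKi replicate 3 (-0.88) or replicate 4 (-0.90), by DESeq2 (-0.97) and with no filter (-0.79).

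The MEKi mean lay between those of XX and XY in DMSO for 17 of the 20 genes called higher in XX and for 11 of the 12 called higher in XY, on the log2(CPM + 1) scale. Over the 47 genes that stay on subtraction these counts were 15 of 18 and 7 of 8. The exceptions were Stra8, which lay beyond XX, Ankrd31 and Zfp583, which lay just beyond XY, and Sh3d19, which lay beyond XY. The sex calls and the position rest on shared libraries, so these counts describe the means and are no test. Compared directly with XX DMSO, 12 of the 54 genes were higher with MEKi (22.2%, against 17.2% of all genes) and 15 lower (27.8%, against 12.8%). Over the 47 genes that stay on subtraction, 8 were higher (17%) and 13 lower (27.7%). Zcwpw2 had the largest negative difference (-2.95 ± 0.13) and Ptgr1 the largest positive (3.31 ± 0.264), both among the 7 genes that leave the set on subtraction. 4930447C04Rik (-2.08), Zup1 (-2.01), Sycp1 (-1.96), Ankrd31 (-1.90) and Sycp3 (-1.57) were among those lower with MEKi than in XX, and Sh3d19 (2.84) among those higher. Sdc4 (3.15), Prelid2 (3.14) and Cracdl (2.55), also among the 7, had positive differences as well. The call of Gdpd1 was lost without XX 72 h DMSO replicate 4 (0.94) and that of Rnf212b without XY 72 h MEKi replicate 4 (-0.91). Those of Adad1 (-0.84 to -0.96) and Zfp667 (-0.83 to -0.87) were lost without any 1 of 5 and of 3 libraries. By DESeq2 the calls of Adad1, Gdpd1, Rec8 and Xlr5a were lost, and with no filter those of Adad1, Rnf212b and Zfp667. Of 8 tested pregranulosa markers 2 were lower with MEKi and 0 higher (median log2 fold change -1.01), of 8 Sertoli markers 1 was lower and 0 higher (0.56), of 7 Leydig and interstitial markers 1 was lower and 0 higher (-0.26), and of 4 mesonephros and epithelium markers 2 were higher and 0 lower (1.23). The pregranulosa list took 0.00453% to 0.00654% of the counts with MEKi. The part of these lists was not tested.

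**Figure D5:**
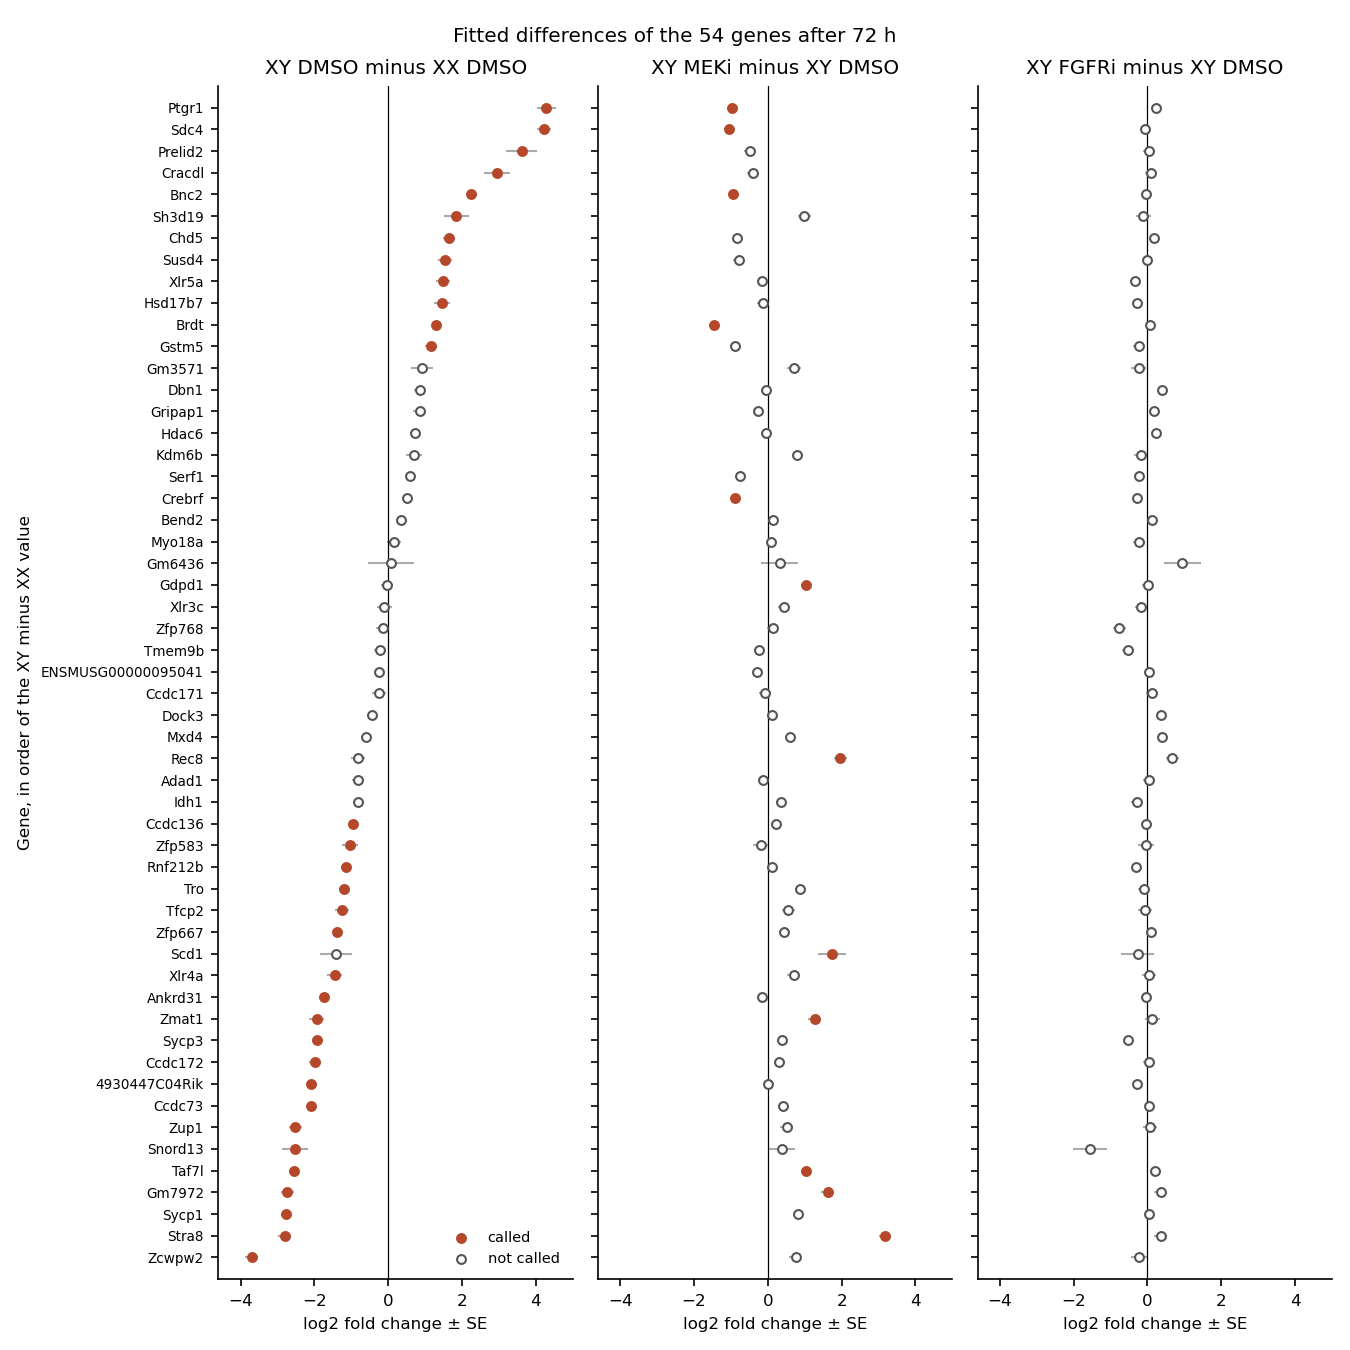
Fitted log2 fold change (horizontal axis, with SE) of each of the 54 genes (rows, in order of the first panel) at 72 h for XY minus XX in DMSO, XY MEKi minus DMSO and XY FGFRi minus DMSO. Filled points passed the test (32, 12 and 0 genes, of which 26, 9 and 0 are among the 47 that stay on subtraction). Filled points outside these 47 are a description only. All 3 contrasts share the XY DMSO libraries. Values run from -3.70 to 4.28 in the first panel, from -1.47 to 3.18 in the second and from -1.56 to 0.95 in the third.

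With FGFRi for 72 h none of the 54 genes was called by limma treat. Of all 15252 genes 1 was called (0.00656%), a higher one, which is 0.0143% of the other genes that met the 24 h level. Of all 15252 genes 89 had an unadjusted treat p under 0.05, and of the 54 only 1 gene did. That gene was Snord13, a small nucleolar RNA whose exon overlaps a long non-coding RNA on the same strand in the annotation, at a log2 fold change of -1.56 (SE 0.456) with overlapping groups. No member was called by edgeR glmTreat or by DESeq2 at the same fold, while limma eBayes with an observed fold over 1.5 called Rec8 (0.67, SE 0.175) and Zfp768 (-0.76, SE 0.177), whose groups did not overlap. Over all 15252 genes this eBayes setting called 38 higher and 48 lower. The median log2 fold change of the 54 was -0.01. Stra8 was at 116, 202, 105 and 140 CPM with FGFRi, which overlaps DMSO, and Brdt was at 332, 335, 336 and 308 CPM.

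MEKi and FGFRi, at the same dose and time, were compared directly in 1 test per gene over the same 15252 genes. MEKi was higher for 11 of the 54 genes (20.4%, against 5.71% of all genes and 7.51% of the other genes that met the 24 h level) and lower for 5 (9.26%, against 6.98% and 3.04%). Over the 47 genes that stay on subtraction, 11 were higher (23.4%) and 3 lower (6.38%). DESeq2 at the same tested fold called 4 higher and 4 lower, with no filter 6 were higher and 5 lower, and an observed fold over 1.5 gave 20 higher and 8 lower. Over the 47 these were 4 and 2, 6 and 3, and 18 and 6. Over all genes they were 574 and 784 of 15252, 480 and 873 of 40820, and 2616 and 2650 of 15252 (limma eBayes). The calls lost by DESeq2 were those of Bnc2, Gdpd1, Kdm6b, Sh3d19, Snord13, Sycp3, Tro and Zmat1, and with no filter those of Kdm6b, Sh3d19, Snord13, Sycp3 and Zmat1. With the size factors of DESeq2 in place of TMM, those of Kdm6b, Sycp3 and Tro were lost. Stra8 was higher (2.82 ± 0.149, limma FDR 1.45e-17), as were Scd1 (2.02), Rec8 (1.29), Gm7972 (1.27), Zmat1 (1.13), Sh3d19 (1.11), Gdpd1 (1.03), Kdm6b (0.99), Tro (0.98), Sycp3 (0.90) and Snord13 (1.94, groups overlapping). Brdt (-1.53 ± 0.102, limma FDR 1.48e-10), Chd5 (-1.02) and Bnc2 (-0.91) were lower, and the fitted differences of Ptgr1 (-1.20) and Sdc4 (-1.01), of the 7 genes that leave the set on subtraction, were negative. The FDR of Sycp3 was 0.04999, and it was lost without XY 72 h FGFRi replicate 2 (0.78) or replicate 5 (0.81) or without XY 72 h MEKi replicate 2 (0.81) or replicate 5 (0.78). Lost also were the calls of Zmat1 (0.96) and Snord13 (1.2) without XY 72 h FGFRi replicate 2. The call of Kdm6b was lost without XY 72 h FGFRi replicate 4 (0.94) or replicate 6 (0.92) or without XY 72 h MEKi replicate 2 (0.95). The call of Tro was lost without XY 72 h FGFRi replicate 5 (0.89) or replicate 6 (0.90) or without XY 72 h MEKi replicate 5 (0.94), and that of Sh3d19 without XY 72 h MEKi replicate 4 (0.98). In the 72 h MEKi libraries the Sertoli cell list took 0.00665% to 0.0255% of the counts and in the 72 h FGFRi libraries 0.00913% to 0.0142%. The Leydig and interstitial list took 0.00539% to 0.00963% and 0.0038% to 0.00527%, with no overlap. Of 8 tested Sertoli markers 1 was called higher with MEKi, and of 7 Leydig and interstitial markers 1 was. Of 4 mesonephros and epithelium markers 1 was higher and 1 lower, and of 2 endothelial markers 1 was lower. Of the pregranulosa and blood lists 0 were called. The part of these lists was not tested.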

How the data were processed

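The authors deposited whole-number UMI counts per gene for 40 germ cell libraries in 1 table. Per the authors' methods, a sample index and UMI were added at poly(A) priming, and reads were demultiplexed and counted over exons with scPipe after alignment to GRCm39 with Rsubread. Priming at the poly(A) tail keeps counts from scaling with length, so levels were not divided by it. Sample groups follow the library names in the labels. The 54 genes and the gene lists were chosen with earlier results of these data known.

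CPM were taken over all counts of a column. Identifiers were matched to GENCODE M39 (40391 of 42422, the rest holding 1.05% of the counts). Genes were filtered with filterByExpr of edgeR 4.0.16 (minimum count 10, minimum total 15), which left 15252. They were TMM scaled and fitted with voomWithQualityWeights and treat in limma 3.58.1, with 1 mean per group over all 40 libraries, a tested fold of 1.5 and Benjamini-Hochberg adjustment (FDR under 0.05). The fit was tested on simulated counts. No test of the 24 h contrasts is reported because the rule used the 0 h and 24 h DMSO groups. Replicate libraries are separate pools of gonads. Genes named were those on a list, the 10 with the largest smaller ratio, the 5 with the highest 24 h mean, per tested contrast the 5 higher and 5 lower called genes with the largest fold whose groups did not overlap, those beside a threshold and any that passed the fit for 24 h MEKi, which added no gene, and others were named after their values were seen. Alternatives were DESeq2 1.42.0 size factors and test, no filter, edgeR, observed folds, 1 pool and each library left out. Depth and 4 libraries per group limit precision.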

Additional observations from a re-analysis of the deposited data

Results flagged for a closer look

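For 16 of the genes each group of 4 libraries was examined for a library whose gap to the nearest of the others, divided by the range of the group, passed Dixon's critical value for 4 values. Of 160 groups 12 were flagged, where chance flags about 1 in 20. In Stra8, XY 72 h DMSO replicate 5 was at 59.83 CPM and the other 3 at 117.8 to 124.4 CPM. Sycp3 was high in XX 24 h DMSO replicate 6, at 791.7 CPM, and low in XX 72 h DMSO replicate 7, at 1563 CPM, and Sycp1 was high in XY 72 h FGFRi replicate 4, at 369.8 CPM. XY 0 h replicate 5 was the highest of its group for 4930447C04Rik (178.1 CPM), Brdt (44.96 CPM) and Ankrd31 (14.42 CPM). XY 72 h FGFRi replicate 6 was the lowest for Brdt (308 CPM) and Ankrd31 (123.3 CPM). Among the 24 h inhibitor groups, Tro was high in FGFRi replicate 4 (46.8 CPM), Kdm6b in FGFRi replicate 3 (60.03 CPM) and Zcwpw2 low in MEKi replicate 6 (7.714 CPM).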

How the results depend on the processing

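The number of genes that met the rule was 39 to 62 with 1 library left out, 9 with a 3-fold rule, 23 at 50 CPM and 35 without both XY 24 h DMSO replicate 3 and XX 24 h DMSO replicate 6 (chosen after seeing the data), and within 1.5 times of 54 otherwise. With 1 library left out, called genes among the 54 were 31 to 34 for XY v XX at 72 h, 0 to 0 for FGFRi, 9 to 12 for MEKi, 13 to 17 for MEKi v FGFRi and 24 to 27 for MEKi v XX. An observed fold over 1.5 gave 24 for MEKi and 28 for MEKi v FGFRi by limma eBayes and by edgeR alike, and 2 for FGFRi by eBayes. DESeq2 at the tested fold gave 5 and 8 for the MEKi contrasts. The counts over all genes by eBayes and DESeq2 are given with these contrasts above. The cause was not tested. With the replicate number as a block over the 12 XY 72 h libraries, 14 genes were called for MEKi, 19 for MEKi v FGFRi and 0 for FGFRi, and without the block on these libraries (chosen after seeing the data) 14, 18 and 0. Same-numbered libraries showed little correlation (10 pairs, -0.09 to 0.13, 1 over 0.1). Pairs with different numbers reached 0.16, so this check cannot settle whether the numbers pair the libraries. Over all genes the block moved no count by more than 1.5 times except that for FGFRi, from 1 to 2. With the block, of 14163 genes tested, 645 were higher and 733 lower for MEKi, and 941 and 930 for MEKi v FGFRi. Of 30 named differences of the 47 genes that stay on subtraction, 22 kept their call in each alternative, none reversed, and 26 of 484 values lost the call. Over these 47 genes (chosen after seeing the data), the calls with 1 library left out were 25 to 28 for XY v XX, 7 to 9 for MEKi, 11 to 16 for MEKi v FGFRi and 18 to 21 for MEKi v XX. The 4 libraries per group limit what could be called.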
